A study of Mus musculus with 31 samples.

Results

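Translational efficiency (TE) was compared between R98S and WT cells in the 14 cultures that had both a polysomal RNA library and a total mRNA library, 8 of them R98S and 6 WT. These cultures account for 28 of the 31 libraries of the series. A culture was formed from a polysomal and a total mRNA library whose labels carried the same clone and the same replicate number. Of the 41255 genes in the deposited tables, 10627 reached a mean of 10 normalised read counts in each fraction and were tested.

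The cells were Ba/F3, a mouse lymphoid line that grows on interleukin-3. All clones, WT included, carried a human RPL10 cDNA from a retroviral vector together with an shRNA against the endogenous mouse Rpl10, and the genotypes differ in that the cDNA encodes either WT RPL10 or RPL10 with arginine 98 changed to serine. RPL10 joins the large ribosomal subunit late in its assembly, and its R98S form recurs in T-cell acute lymphoblastic leukemia. For the polysomal libraries, the gradient fractions in which an mRNA carries 2 or more ribosomes were pooled. Each genotype was represented by 3 lines, each grown from a single cell. These were R98S clones 11, 13 and 35, with 2, 3 and 3 cultures, and WT clones 28, 29 and 36, with 2, 3 and 1. Number 1 held 3 R98S cultures and 1 WT culture, number 2 held 2 of each and number 3 held 3 of each. Clones and not cultures are the independent units of the genotypes, so the adjusted p-values over cultures measure in part the spread between repeated samples of a clone, which the study counts as technical replicates. What a replicate number marks is not given in the labels.

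An mRNA that is loaded with ribosomes sediments in the polysomal fractions, and one that is free or carries a single ribosome stays above them. The share of an mRNA in polysomes relative to its amount in the cell is commonly used as an estimate of TE. It reports how many copies are engaged by several ribosomes and not how fast the ribosomes move, so an mRNA with slow ribosomes and one with frequent initiation can look alike. Here TE was log2(polysomal + 1) minus log2(total + 1) of the normalised counts of a culture, and the linear form of it is called the ratio. Each table was scaled on its own, so that a ratio of 1 means the average loading of these libraries and not a known number of ribosomes.

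Depth and identity of the libraries were examined first. Read numbers were 8831180 to 20754046 for R98S and 13436103 to 20353757 for WT polysomal libraries, and 11471068 to 22059792 and 9338671 to 17492928 for the matched total mRNA libraries. The interleukin-3 receptor subunits Csf2rb and Csf2rb2 were among the markers with the highest total mRNA level, at means of 93430 and 69680 in R98S and 39360 and 30010 in WT. Of 10 B lineage markers only Cd79a and Cd79b had a mean of at least 10, and Pax5, Ebf1, Rag1 and Dntt were at or near 0, while the myeloid gene Cebpe and the erythroid gene Klf1 were present. None of the 4 fibroblast and 4 epithelial markers reached a mean of 10. Rpl10 itself, whose counts can include reads of the human cDNA, had 901 to 2984 normalised counts in R98S total mRNA and 943 to 5715 in WT total mRNA, so the groups overlapped.

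The fractions of a culture should resemble each other more than those of unrelated clones. Over the 1000 genes that varied most between libraries of a genotype, 28 of the 31 libraries were closest to their own clone in the other fraction and 3 were not. The effect of the replicate number was not removed, and the mean over the own clone included the partner library of the same culture. The polysomal library labelled R98S clone 35 number 3 correlated with its own total mRNA library at r = -0.15 and on average at 0.29 with those of clone 11. The total mRNA library labelled WT clone 29 number 1, which belongs to the single WT culture of number 1, had r = -0.19 with its own polysomal library and a mean of 0.10 with those of clone 28. The third library, the total mRNA of WT clone 28 number 1, has no polysomal partner and is not among the 28. In the other 12 cultures the correlation ranged from 0.17 to 0.63. These correlations are across genes and descriptive, and whether labels were exchanged was not tested. The check does not separate the libraries sharply. The total mRNA library of R98S clone 13 number 2 passed at a mean of 0.08 with its own clone. The name mismatched fractions, used below for R98S clone 35 number 3 and WT clone 29 number 1, stands for the outcome of this check alone. Genotype assignment is as labelled throughout, and the number of genes called is also given for the 12 cultures without these 2. With WT clone 29 number 1 left out, number 1 holds no WT culture, and the differences over the 12 cultures come from numbers 2 and 3. The R98S cultures of number 1 then enter the estimate of variance, and so the standard errors and p-values, but not the differences. A further culture stood apart by base composition. In WT clone 28 number 2 the deviation of TE from the mean of each gene over the cultures increased by 0.65 log2 units per 10 percentage points of transcript GC content, while the slopes of the other 13 cultures lay between -0.32 and 0.20. The plot of fraction agreement shows these values.

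**Figure D1:**
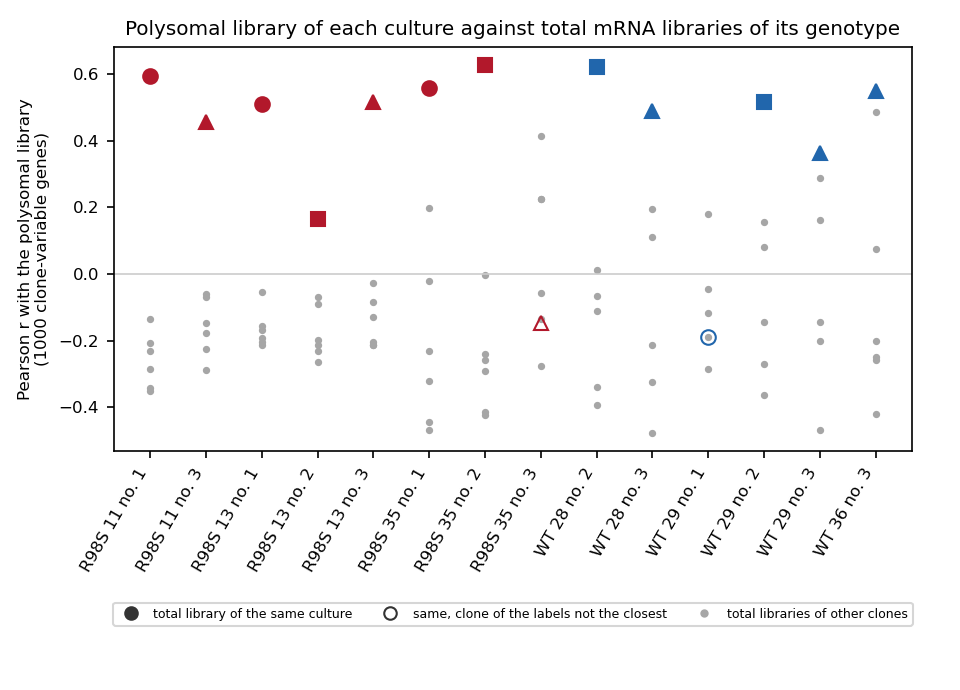
Pearson correlation of each polysomal library (x axis: genotype, clone and number) with total mRNA libraries of its genotype. It was taken over the 1000 genes that varied most between libraries of a genotype, centred within genotype. Large symbols mark the total mRNA library of the same culture (circles, squares and triangles are numbers 1, 2 and 3, with red for R98S and blue for WT). Grey points mark those of other clones of the genotype. The 2 hollow symbols, R98S clone 35 number 3 and WT clone 29 number 1, lie below 0, while the other 12 lie between 0.17 and 0.63.

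Within replicate numbers, TE differed between R98S and WT for 50 of 10627 genes at an adjusted p under 0.1 (limma with the replicate number as block), which is 0.47% of the genes tested. Of these, 41 genes or 0.386% had a higher TE in R98S and 9 genes or 0.0847% a lower one. At an unadjusted p under 0.05 there were 1313 genes, where 531 would be expected without any difference, and the median standard error of a TE difference was 0.18 on the log2 scale. By the same rule 31.0% of the genes differed in polysomal RNA and 26.4% in total mRNA, with 1819 genes called in both fractions in the same direction and 0 in opposite directions. Without the 2 cultures of mismatched fractions 114 genes were called, which is 1.07%, with 79 higher (0.743%) and 35 lower (0.329%). Of the 50 genes, 30 were called again in the 12 cultures, 24 of them higher and 6 lower, and all 50 had the same sign. The largest adjusted p among the 20 others was 0.189. With one value per clone, 3 clones against 3, limma called 44 genes, 29 of them among the 50. Without the replicate block 4 genes were called. Leaving out 1 culture at a time gave 22 genes without R98S clone 35 number 2 at the low end and 605 without WT clone 29 number 1 at the high end, and 114 without WT clone 28 number 2. A fit without all of number 1 has the same differences as that without WT clone 29 number 1 but called 82 genes. The 605 are thus no measure of larger differences, since only the estimate of variance changed. Leaving out a whole clone gave 7 genes for clone 11, 21 for clone 13, 5 for clone 35, 58 for clone 28 and 860 for clone 29. The excess of genes with higher TE depended on the cultures. Of the 605 genes, 296 were higher and 309 lower, and of the 860 genes, 411 and 449. Number 2 alone gave 0 higher and 6 lower.

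The 41 genes with higher TE were mostly genes whose polysomal RNA rose. Polysomal RNA was called higher for 40 of the 41, and total mRNA was called higher as well for 25 of these, where 1613 and 1271 of the 10627 genes were called higher in polysomal RNA and total mRNA. In the other 15 only the polysomal difference passed the test. The remaining gene was Rin3, an exchange factor for Rab5-type GTPases, in which polysomal RNA was 0.45 log2 units higher (adjusted p = 0.145) and total mRNA fell by 0.41 (adjusted p = 0.0691), giving a TE difference of 0.86 ± 0.15 (SE, adjusted p = 0.0267). Among the 9 genes with lower TE, polysomal RNA was called lower in all and total mRNA in 1, Mad1l1. Clone means of the 2 genotypes did not overlap for any of the 50 genes. These genes were chosen by the difference between the genotypes, so this largely restates the selection. Over all genes tested, 19.3% had clone means that did not overlap.

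**Figure D2:**
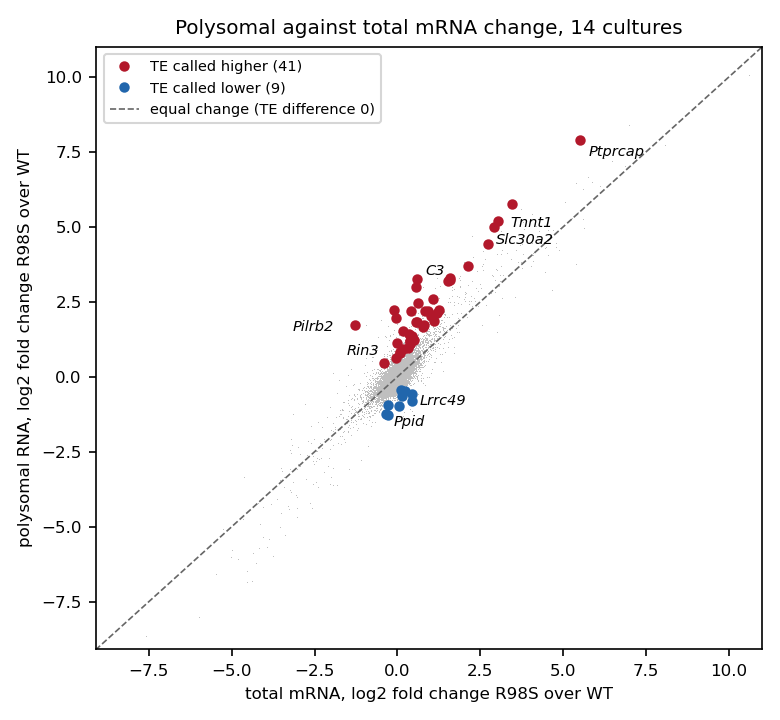
Difference between R98S and WT (log2, replicate number as block) in polysomal RNA (y axis) against that in total mRNA (x axis) for 10627 genes, with the 41 genes of higher TE in red and the 9 of lower TE in blue. The dashed line marks equal change in both fractions, and the distance from it is the TE difference.

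The gene with the smallest adjusted p was Rab37, a small GTPase of secretory granules (chr11:115091431-115162236, plus strand, GRCm38). In polysomal RNA its lowest, median and highest values were 1137, 1523 and 1759 normalised counts in R98S and 212, 474 and 537 in WT. In total mRNA they were 1437, 1761 and 2734 against 643, 1257 and 1789. The polysomal values of the genotypes did not overlap, whereas the total mRNA values did. The ratio therefore lay between 0.612 and 1.01 in R98S and between 0.223 and 0.451 in WT. The TE difference was 1.23 ± 0.14 (SE) on the log2 scale, with an adjusted p of 0.00122, and it was 1.22, 0.95 and 1.42 within numbers 1, 2 and 3. In the 12 cultures it was 1.15 (adjusted p = 0.0174).

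A pair of further Rab GTPases, which direct vesicle traffic, also had a higher TE. Rab25, of the recycling endosome, had 62.1 to 210 polysomal counts in R98S (median 87.8) and 24.9 to 68.1 in WT (median 42.1), with a TE difference of 1.07 ± 0.21 (adjusted p = 0.0482). Rab4a, of the early and recycling endosome, differed by 0.72 ± 0.15 (adjusted p = 0.0586), with overlapping ratios of 0.731 to 0.918 in R98S and 0.365 to 0.744 in WT. In the 12 cultures their adjusted p-values were 0.107 and 0.102, so neither was called. Of the 43 Rab GTPases tested these 3 were called higher, where 0.386% of all genes were, and none lower, and the median over the list was 0.06, beside -0.00 over all genes. Rab37 was the only one of the 43 called in the 12 cultures. The sequences around the start codons of the 3 transcripts, from the GENCODE M21 models of GRCm38, are shown because the genes share a family and a direction. Capitals mark the start codon.
Rab37: gtccggggacATGactggcacaccag
Rab25: ctgagccaagATGgggaatcgaacag
Rab4a: tggcggcagaATGgcgcagaccgcca
The models place 42, 225 and 151 bases of leader before these start codons, and only the Rab25 leader holds upstream ATG triplets, 2 of them.

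Polr2b, Supt6 and Supt5 followed among the genes with the smallest adjusted p. Polr2b encodes the second-largest subunit of the polymerase, and Supt5 and Supt6 encode elongation factors that travel with it. Polr2b (chr5:77310147-77349324) had polysomal values of 1660, 2527 and 3306 in R98S and 394, 777 and 1516 in WT, given again as lowest, median and highest. Its total mRNA, 3015 to 3933 in R98S and 2262 to 3726 in WT, overlapped and did not pass the test (0.17 log2 units, adjusted p = 0.189). The ratio was 0.535 to 1.01 against 0.171 to 0.485, without overlap, and the TE difference was 1.35 ± 0.17 (adjusted p = 0.00185).

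Supt6 (chr11:78206746-78245987) reached 613, 1955 and 3164 polysomal counts in R98S and 169, 372 and 1169 in WT. Here the genotypes overlapped across numbers but were apart within each number. Both fractions differed, polysomal RNA by 1.83 and total mRNA by 0.56 log2 units, which left a TE difference of 1.26 ± 0.18 (adjusted p = 0.00735). Supt5 (chr7:28314891-28338746) had 1581, 3025 and 4408 polysomal counts against 444, 1042 and 1862 and differed in TE by 0.95 ± 0.15 (adjusted p = 0.00826). All 3 genes were called again in the 12 cultures, at adjusted p-values of 0.0193, 0.0308 and 0.0472. Of the 44 tested subunits of the polymerase and of Mediator, however, Polr2b was the only one called, and 30 had a TE difference below 0, with a median of -0.04. The start codon contexts of these transcripts are given for comparison with those of the Rab genes.
Polr2b: tttggccaagATGtatgacgccgacg
Supt5: gctgcggaagATGtcggacagcgaag
Supt6: agcagcaacaATGtctgattttgtgg
All have an A at the base 3 before the start codon and a T directly after it, and Polr2b and Supt6 have 2 and 3 upstream ATG triplets in leaders of 465 and 470 bases.

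C3, the central complement component, had the largest TE difference among those whose mean reached 50 in both fractions. Its polysomal values were 660, 1350 and 1956 in R98S and 27.1, 121 and 1797 in WT, and its total mRNA overlapped fully, at 187 to 951 against 73.2 to 958. The TE difference was 2.66 ± 0.40 (adjusted p = 0.00826), and it was 4.08 in number 1 and 2.17 and 2.27 in numbers 2 and 3. In WT the highest culture was far above the others, and the genotypes overlapped within at least 1 number.

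Tyrobp, an adaptor that carries an activating signal from myeloid and NK receptors, had 270, 378 and 1357 polysomal counts in R98S against 56.4, 144 and 350 in WT. Its TE difference was 1.28 ± 0.22 (adjusted p = 0.0255), and both fractions rose. Cd79b, a signalling chain of the B cell receptor, had 315 to 1288 polysomal counts against 119 to 613, with a TE difference of 0.89 ± 0.16 (adjusted p = 0.0285). Both were apart within every number and were called in the 12 cultures, each at an adjusted p of 0.0792. Cd79a, the other B lineage marker with a mean of at least 10, had polysomal means of 1495 in R98S and 1338 in WT. Its total mRNA means were 966.6 and 855.5.

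Wipf1, which binds the Wiskott-Aldrich protein and controls actin assembly, had 2276 to 4127 polysomal counts in R98S and 598 to 2163 in WT, with a TE difference of 0.83 ± 0.16 (adjusted p = 0.0357). The difference was 0.09 in number 1, the number whose WT culture has a mismatched fraction, and 0.79 and 1.23 in numbers 2 and 3. Without the mismatched cultures it was 1.03 (adjusted p = 0.0174). Gapt, an adaptor that binds Grb2, was at 0.95 ± 0.20 (adjusted p = 0.0573) and lost the call in the 12 cultures (adjusted p = 0.122). For the receptor tyrosine kinase Igf1r the polysomal values were 320 to 1136 in R98S and 76.7 to 288 in WT, without overlap, and TE differed by 0.99 ± 0.20 (adjusted p = 0.0508).

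The T cell receptor chains Cd3d and Cd247 were called too, at 1.72 ± 0.35 (adjusted p = 0.0536) and 1.67 ± 0.34 (adjusted p = 0.0508), but at low levels in WT. Neither was called in the 12 cultures, at adjusted p-values of 0.123 and 0.102. The mean in WT was 9.38 polysomal counts for Cd3d and 9.01 for Cd247, and 60.3% of the exonic sequence of Cd247 overlaps Pou2f1 on the opposite strand. Ptprcap, which associates with CD45, is listed with 355 to 1301 polysomal counts in R98S and 0 to 7.99 in WT. Its exons lie entirely within Rps6kb2 on the opposite strand. The library kit was stranded, but whether counting used the strand is not given in the sources used here. Its TE difference of 2.41 ± 0.49 (adjusted p = 0.0508) depends on the pseudocount, since both fractions are near 0 in WT.

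In all, 11 of the 41 genes had a WT mean under 10 normalised counts in a fraction, and 22 had WT means of at least 100 in both. Over all 10627 genes these numbers were 251 and 8756, and over the 9 genes called lower 0 and 9. Low genes of this kind, in addition to those above, included Pilrb2, a myeloid receptor gene with 15.4 and 42.4 mean counts in polysomal RNA and total mRNA, and Dnajb13, a sperm axoneme gene with WT means of 1.00 and 5.05. Slc30a2, a zinc exporter of vesicles, had 103 to 218 polysomal counts in R98S and 0.732 to 35.7 in WT, with a TE difference of 1.71 ± 0.31 (adjusted p = 0.0285). Slc30a2 and Dnajb13 lost the call in the 12 cultures, at adjusted p-values of 0.102 and 0.166. Tmc4, a membrane channel gene, had 49.6 to 129 against 9.59 to 43.6 and differed by 1.78 ± 0.27 (adjusted p = 0.00826).

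Neighbouring genes were called in the same direction at a pair of places. Ankrd23, Ankrd39 and Fam178b lie within chr1:36530188-36683183 on the minus strand, with TE differences of 1.16, 0.75 and 2.33. The troponin genes Tnni3 and Tnnt1, which encode proteins of the striated muscle thin filament, lie within chr7:4504570-4524229, also on the minus strand, at 1.62 and 2.18. In the 12 cultures Ankrd23 and Fam178b were called again, whereas Ankrd39, Tnni3 and Tnnt1 were not, at adjusted p-values of 0.140, 0.114 and 0.102. Tnni3 had a WT mean of 3.42 polysomal counts, under the minimum of 10 that it reached through R98S. Of the exonic bases of Ankrd23, 78.2% are shared on the same strand with the gene model Gm42417, so its counts are uncertain. Tnnt1 had 0 to 96.5 polysomal counts in WT and 77.8 to 573 in R98S.

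Ogt, the enzyme that attaches O-linked N-acetylglucosamine to nuclear and cytosolic proteins, had a low ratio in both genotypes, 0.111 to 0.296 in R98S and 0.0603 to 0.258 in WT. Its TE difference was 0.76 ± 0.17 (adjusted p = 0.0812) and rose to 1.03 (adjusted p = 0.0308) in the 12 cultures. Total mRNA of Ogt did not pass the test (0.07 log2 units, adjusted p = 0.820). Tbcd, a tubulin folding cofactor, differed by 0.65 ± 0.14 (adjusted p = 0.0604) but was not called in the 12 cultures (adjusted p = 0.132), and Zfc3h1, a factor of nuclear RNA decay, by 0.71 ± 0.16 (adjusted p = 0.0834).

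**Figure D3:**
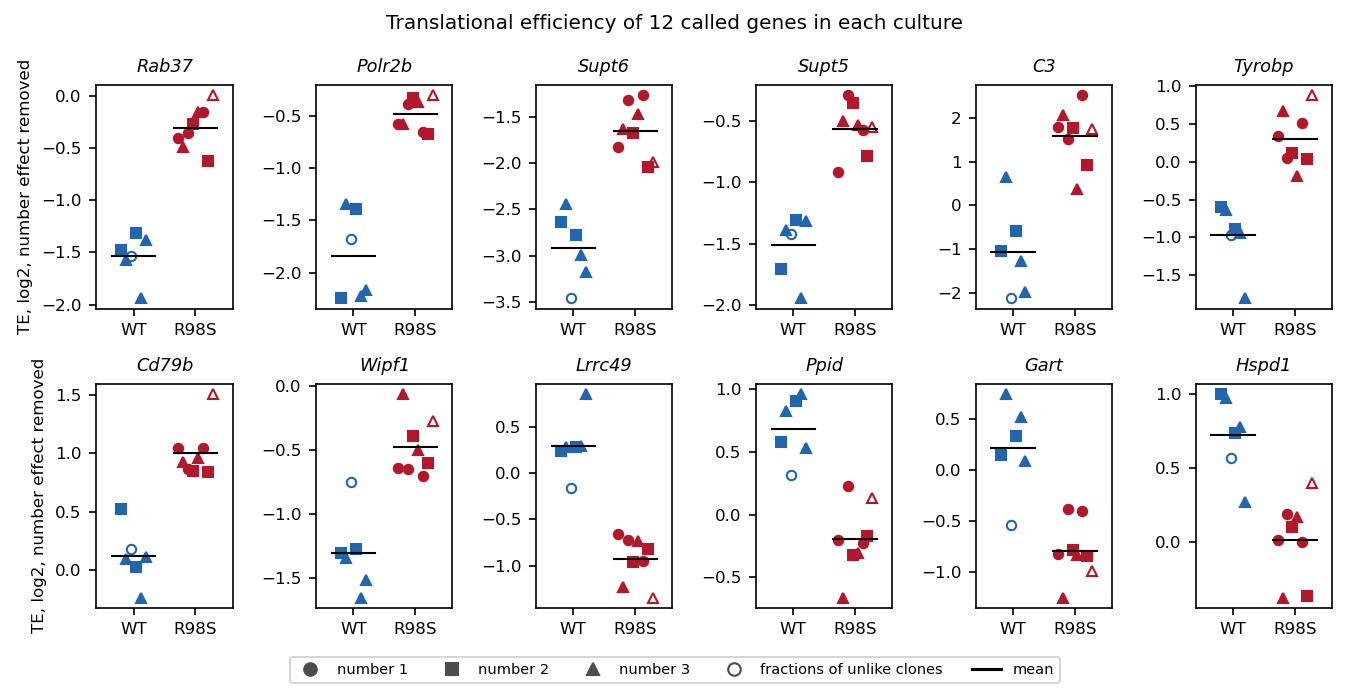
TE of 12 called genes in each of 6 WT and 8 R98S cultures (y axis: log2 of the polysomal to total ratio with the effect of the replicate number removed; symbols mark the number, bars the mean, hollow symbols the 2 cultures of mismatched fractions). The R98S cultures of Rab37, Polr2b, Supt5 and Supt6 all lie above the WT cultures and those of Lrrc49 all lie below, while for Gart and Ppid a hollow WT symbol lies closest to R98S.

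Of the 9 genes with a lower TE in R98S, Lrrc49, which takes part in tubulin polyglutamylation, had the smallest adjusted p (chr9:60568859-60688158). Its polysomal values were 57.8, 167 and 224 in R98S and 147, 209 and 260 in WT, while total mRNA was 140, 254 and 325 against 105, 187 and 231. Each fraction overlapped between genotypes, but the ratio did not, at 0.273 to 0.788 in R98S and 0.841 to 1.68 in WT. TE fell by 1.22 ± 0.19 log2 units (adjusted p = 0.00826) and by 1.32 in the 12 cultures (adjusted p = 0.0223).

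Ppid, a cyclophilin that works with Hsp90, had 1052, 1455 and 2569 polysomal counts in R98S and 2759, 3748 and 5975 in WT, without overlap. Total mRNA overlapped, and TE fell by 0.88 ± 0.16 (adjusted p = 0.0285). Hspd1, the mitochondrial chaperonin, had 5667 to 13391 against 7970 to 12508 polysomal counts and 5205 to 10705 against 4155 to 11726 in total mRNA. Both fractions of Hspd1 overlapped, and its TE fell by 0.71 ± 0.16 (adjusted p = 0.0963). Hspa4, a nucleotide exchange factor of Hsp70, fell by 0.54 ± 0.13 (adjusted p = 0.0966), a difference that was not called in the 12 cultures (adjusted p = 0.102).

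Gart, which catalyses 3 steps of purine synthesis, had 579, 996 and 1367 polysomal counts in R98S and 1373, 1746 and 2553 in WT, without overlap. Total mRNA differed by 0.03 log2 units and did not pass the test (adjusted p = 0.939), and TE fell by 1.00 ± 0.19 (adjusted p = 0.0420). The difference was 0.00 in number 1, -1.05 in number 2 and -1.47 in number 3, and in the 12 cultures it was -1.29 (adjusted p = 0.0174). Up to 19.7% of its exonic sequence overlaps the opposite-strand model Gm15964.

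Of the remaining genes with lower TE, Tsc22d1, a leucine zipper regulator induced by TGF-beta, fell by 0.99 ± 0.19 (adjusted p = 0.0416), with polysomal values of 684 to 1021 in R98S and 1289 to 3586 in WT. Stab1, a scavenger receptor, fell by 1.03 ± 0.19 (adjusted p = 0.0317). Slc38a7, a lysosomal glutamine transporter, fell by 0.76 ± 0.16 (adjusted p = 0.0559), and Mad1l1, of the spindle checkpoint, by 0.65 ± 0.15 (adjusted p = 0.0963). The last pair lost the call in the 12 cultures, at adjusted p-values of 0.116 and 0.112. Start codon contexts of 6 genes with lower TE follow.
Lrrc49: gtctcctgccATGattcccggaaaat
Ppid: cgcagtgaagATGtcccacgcatccc
Gart: ggagacagccATGgcagcccgagttc
Hspd1: ccccgcagaaATGcttcgactaccca
Hspa4: agccggcgccATGtcggtggtgggca
Slc38a7: gtcttgggccATGgcccaggtcagca
Each of these has a purine 3 bases before the start codon, as do the 6 sequences of the genes with higher TE.

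Sequence features that the selection did not use are given here beside their values over all genes tested. A purine 3 bases before the start codon was found in 78.4% of the 37 annotated genes called higher, 88.9% of the 9 called lower and 86.4% of all tested genes with a usable model. A G directly after the start codon was found in 48.6%, 44.4% and 54.1%, and at least 1 upstream ATG in the leader in 48.6%, 55.6% and 49.6%. The median leader was 140 bases for genes called higher, 239 for genes called lower and 168 over all. These are matches to a letter on the transcript strand in one model per gene, and none of them is a measured site of initiation.

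Coding length was also compared. Its median was 1113 bases in genes called higher, 2058 in genes called lower and 1383 over all genes tested. At an unadjusted p under 0.05, the 1963 genes with the shortest coding sequences (111 to 747 bases) held 185 genes with higher and 40 with lower TE. The 1963 genes of 1629 to 2457 coding bases held 109 and 158, and the 1963 longest, of 2457 to 26397, held 129 and 151. Over all 9815 genes with a coding length these numbers were 673 and 558. The slope of TE on transcript length differed between the replicate numbers, from 0.40 log2 units per doubling in WT clone 29 number 1 to -0.39 in R98S clone 13 number 3, and its part in the difference was not tested beyond a fit with length correction, which called 68 genes.

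Gene lists of translation, metabolism and signalling were described by the number of members called and by their median, beside a median of -0.00 over all genes, of which 0.386% were called higher and 0.0847% lower. At an unadjusted p under 0.05, 723 of the 10627 genes were higher and 590 lower. Among 82 cytosolic ribosomal proteins 81 had a TE difference above 0, with a median of 0.24, and none was called. At an unadjusted p under 0.05, 10 of them were higher and 1 lower. The one member below 0 was Rpl10 itself, at -0.61 ± 0.25 (adjusted p = 0.339). Rps6, a small subunit protein phosphorylated by S6 kinase, was at 0.40 (adjusted p = 0.310), Rpl41 at 0.45 and Rps7 at 0.42 (both 0.315). The list median was 0.57, 0.24 and 0.08 in numbers 1, 2 and 3 and 0.15 in the 12 cultures, where 67 of 82 were above 0, and it was 0.02 when WT clone 29 was left out.

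Factors that assemble ribosomes lay on the other side. Of 65 factors of the small subunit processome 56 were below 0, with a median of -0.20, and of 61 factors of large subunit assembly 48 were below 0, with a median of -0.21. None was called in the 14 cultures. The processome members with the smallest p were Wdr36 at -0.52, Utp15 at -0.42 and Wdr43 at -0.42, with adjusted p-values of 0.184, 0.185 and 0.237. Nmd3, the export adaptor that RPL10 loading releases from the large subunit, was at -0.49 ± 0.14 (adjusted p = 0.157). In number 1 both medians were above 0, at 0.20 and 0.22. In the 12 cultures they were -0.32 and -0.34, with 61 of 65 and 55 of 61 below 0, and Nmd3, Wdr18 and Bop1, which act in large subunit assembly, were called lower at -0.65, -0.78 and -0.87 (adjusted p = 0.0864, 0.0851 and 0.0893), where 0.329% of all genes were. Total mRNA of the large subunit list had a median difference of 0.20 and polysomal RNA one of -0.06.

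Chaperones were below 0 in 35 of 41 members, with a median of -0.19. Hspd1 and Hspa4 were called lower, where 0.0847% of all genes were, and 14 members were lower at an unadjusted p under 0.05, beside 590 of 10627 genes, including the chaperonin subunit Cct8 at -0.46 (adjusted p = 0.152). This list lay below 0 in numbers 1, 2 and 3, at -0.17, -0.17 and -0.30. In the 12 cultures 31 of 41 were below 0, with a median of -0.28, and Hspd1 alone was called. Polysomal RNA of 20 of its members was called lower and total mRNA of 5, beside 15.8% and 14.4% of all genes, so that the share in total mRNA was near that of all genes. Enzymes of cholesterol and fatty acid synthesis were below 0 in 32 of 39, with the lowest median of the lists at -0.27. None was called, and Acly, Acat2 and Msmo1, which make acetyl-CoA, acetoacetyl-CoA and a sterol intermediate, were at -0.52, -0.61 and -0.69 (adjusted p = 0.236, 0.237 and 0.246). Their medians in the numbers were -0.30, -0.47 and -0.09, and in the 12 cultures 33 of 39 were below 0, with a median of -0.33.

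In nucleotide synthesis Gart was the only member of 33 called, with 23 below 0 and a median of -0.17. Dctd, the dCMP deaminase, was at -0.76 (adjusted p = 0.140) and was called in the 12 cultures at -1.01 (adjusted p = 0.0473). Aminoacyl-tRNA synthetases and nuclear pore proteins had medians of -0.16 each, over 38 and 28 members, with none called. In number 1 both medians were above 0, at 0.06 and 0.05, and they were -0.30 and -0.34 in number 2 and -0.21 and -0.17 in number 3. The synthetase subunit Farsa was called lower in the 12 cultures, at -0.69 (adjusted p = 0.0964). Translation factors had a median of -0.05 over 67 members, which was 0.22, -0.04 and -0.20 in numbers 1 to 3 and -0.13 in the 12 cultures. The recycling factor Abce1 was at -0.56 and the initiation factors Eif5 at -0.54 and Eif4g1 at -0.66, with adjusted p-values of 0.127, 0.153 and 0.181.

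Further lists moved with the replicate number. Oxidative phosphorylation, mitochondrial ribosomal proteins and proteasome subunits had medians of 0.57, 0.52 and 0.49 in number 1 and of -0.32, -0.38 and -0.33 in number 3. The ATF4 response, the amino acid and stress program, had -0.42, -0.40 and 0.73 in numbers 1 to 3, and Atf4 itself was at 0.29 ± 0.18 (adjusted p = 0.513). Glycolysis and hypoxia genes had a median of 0.20, with 25 of 34 above 0 and none called, and -0.02 in number 1. Number 1 compares 3 R98S cultures with the 1 WT culture of mismatched fractions, and the culture and the number cannot be told apart there.

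**Figure D4:**
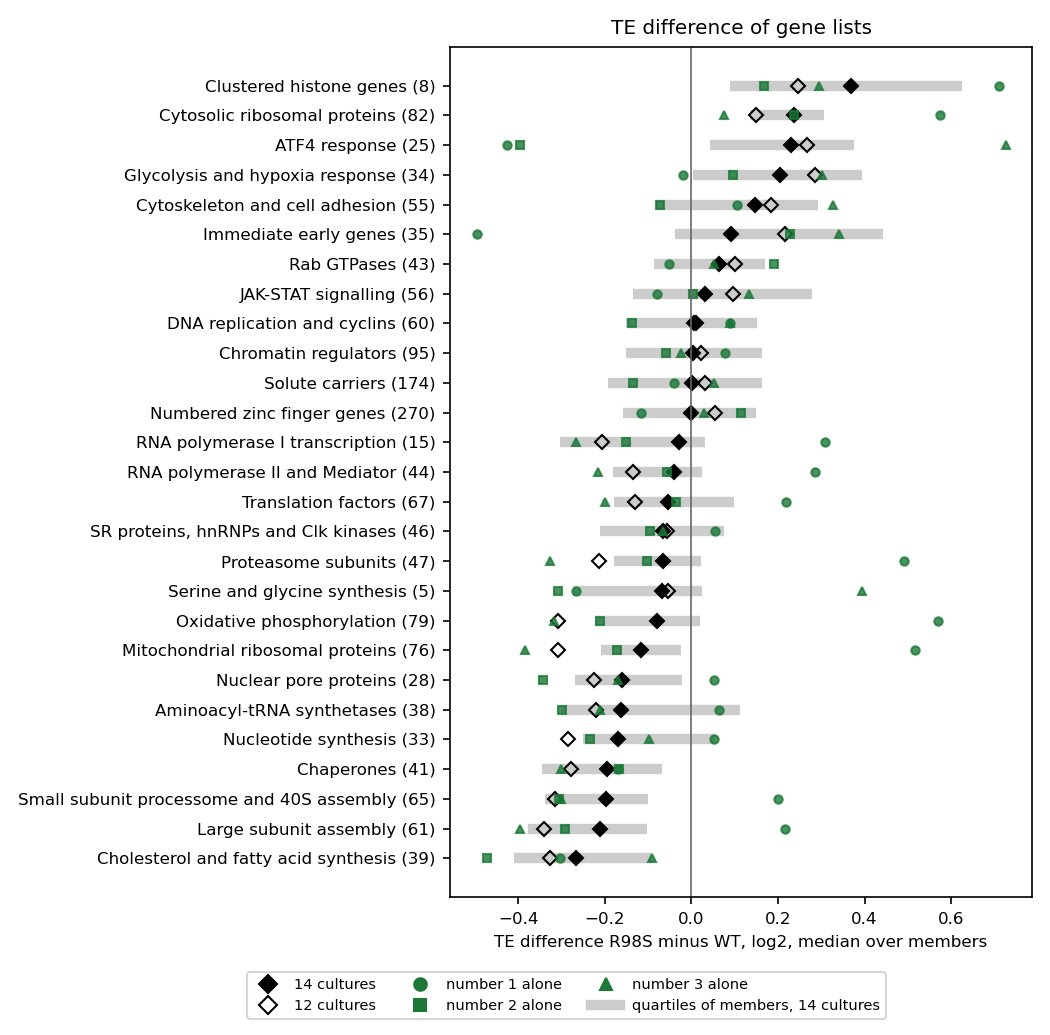
Median TE difference, R98S minus WT in log2, of gene lists (y axis, with the number of members tested) in 14 cultures (filled diamonds, with grey bars from the lower to the upper quartile of the members), in the 12 without mismatched fractions (open diamonds) and within each replicate number (green symbols). Cytosolic ribosomal proteins lie above 0 at 0.24 and 0.15, chaperones and cholesterol synthesis lie below 0 in every number, and several lists lie on opposite sides of 0 in numbers 1 and 3.

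Of the genes that the study treats in detail, none of those given here was called for TE. For Psph the study drew on ribosome footprints and on qRT-PCR of polysomal fractions, separate assays that were not used here. Psph, which makes serine from phosphoserine, had 370, 477 and 803 polysomal counts in R98S and 68.1, 115 and 128 in WT, and 123, 275 and 452 against 53.8, 64.0 and 75.7 in total mRNA. Neither fraction overlapped. Both differences were called, 2.42 in polysomal RNA and 1.84 in total mRNA (log2), and the TE difference was 0.58 ± 0.22 (adjusted p = 0.297). It passed the test in 3 of 41 alternatives, which were array weights and leaving out WT clone 29 or its number 1, at adjusted p-values of 0.0873, 0.0924 and 0.0718. It was -0.15, 1.26 and 0.49 in the 3 numbers. Phgdh, which starts serine synthesis, was at -0.27 ± 0.26, Psat1, the next enzyme, at 0.03 ± 0.20, and Shmt1 and Shmt2, which turn serine into glycine, at -0.39 ± 0.14 and -0.07 ± 0.22, with adjusted p-values of 0.703, 0.974, 0.261 and 0.934. The cytokine receptor kinase Jak1 was at -0.37 ± 0.14 (adjusted p = 0.298) and the survival factor Bcl2 at 0.43 ± 0.18 (adjusted p = 0.344). For JAK-STAT signalling the study reports an enrichment among its genes with higher TE. Those genes were called with Babel from ribosome footprinting, polysomal RNA sequencing or both, so test and assays differ from those used here. Among 56 genes of JAK-STAT signalling none was called here, and the median was 0.03. At an unadjusted p under 0.05, 9 of them were higher and 3 lower, beside 723 and 590 of 10627 genes.

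The TE difference itself varied between replicate numbers for some genes. In a test of the interaction of genotype with number 3 against number 2, 35 genes or 0.329% were called, 34 of them with a more positive difference in number 3. Of the 50 called genes, Fam178b and Ptprcap were among them. With clone 29 left out, the genes called in this test went both ways, but number 2 then held a single WT culture. Fam178b differed by 2.26, 0.53 and 3.57 in numbers 1 to 3, and Ptprcap by 1.46, 0.45 and 4.18. Ptprcap was listed at 0 polysomal counts in all 3 WT cultures of number 3, so the size of its difference there is set by the pseudocount. The sign of the difference was the same in the 3 numbers for 23.2% of all genes. Among the called genes, which were chosen by the difference within these numbers, it was the same for the 41 called higher and for 8 of the 9 called lower, Gart being the exception.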

How the data were processed

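Each deposited value is the signal of a gene, a read count that the authors divided by DESeq2 size factors within each table. Per the submitters' processing notes, TopHat2 2.0.11, Bowtie2, SAMtools, HTSeq and DESeq2 were used with GRCm38/mm10, and whether counting used the strand is not given in the sources used here. Because each table was scaled separately, TE is relative to the average gene. Whole reads were recovered for 100% of values (within 0.01 of a whole number). A total mRNA library of WT clone 36 number 1, which the study excluded, was not analysed here.

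TE per culture was fitted with limma 3.58.1 in R 4.3.3 (lmFit, eBayes with trend) for genes whose mean reached 10 in each table, with a pseudocount of 1 and the replicate number as block. Tests were two-sided with Benjamini-Hochberg adjustment over 10627 genes, called at an adjusted p under 0.1. The study used Babel, which was not used here. Fold changes are on the log2(value + 1) scale and understate low genes. Same-numbered R98S and WT cultures deviated together in TE (r = 0.67, 0.54 and 0.81 for numbers 1 to 3), so the numbers pair the samples. Recovered reads were also tested with edgeR 4.0.16, which called 62 genes, and DESeq2 1.42.0. Scripts were tested on simulated data.

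Named genes are called genes whose mean reached 50 in each table, up to 20 per direction by p, 8 genes the study discusses, and from each of 28 gene lists at most the 3 members with the smallest p. Other called genes are named with their level. The comparison and the lists were chosen with earlier results of these data known. Lists received no test. The check of fractions used, for each genotype, the 1000 genes with the largest standard deviation between libraries, summed over both fractions. Positions and transcript features came from GENCODE M21, which held 95.3% of the tested genes. Cyp2c44, 2310035C23Rik and Fam46a were not matched.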

Additional observations from a re-analysis of the deposited data

Results flagged for a closer look

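In 5 of 116 groups, taken over 58 genes and both genotypes, 1 culture lay far from the others, where chance alone flags about 1 in 20 groups, or 5.8. Ankrd23 in R98S had its lowest TE in clone 13 number 3, with a gap to the next culture of 0.790 of the whole range. 2310035C23Rik in R98S was highest in clone 13 number 2 (0.688 of the range), and Bcl2 in R98S was lowest in clone 13 number 3 (0.559). Tmem184a and Dnajb13 in WT were lowest in clone 29 number 1 (0.685 and 0.649), the culture of mismatched fractions. Tmem184a had a TE of -4.83 there and -2.12 in the next culture. Both genes had WT polysomal means under 10 and lost the call in the 12 cultures, with adjusted p-values of 0.189 and 0.166 (limma).

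The difference between genotypes changed between numbers 2 and 3 for 35 genes by the interaction test (limma, adjusted p under 0.1). 2 of them are among the 50 genes of the main comparison. The TE difference of Fam178b was 3.04 log2 units larger in number 3 than in number 2 (adjusted p = 0.0578) and that of Ptprcap 3.73 larger (adjusted p = 0.0400). Ptprcap was listed at 0 polysomal counts in the 3 WT cultures of number 3, so that its value is set by the pseudocount and is no measure of size. The cause was not tested.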

How the results depend on the processing

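All 50 genes of the main TE comparison kept their direction wherever they were tested in 41 alternatives. These reuse all or part of the cultures by which the genes were chosen, so the shared direction largely restates the selection. The number called moved. It was 4 without the replicate block, so the calls rest on the pairing of cultures by number. It was 261 with array weights, 138 with GC correction and 223 with DESeq2 on recovered reads, against 33 with a mean of at least 50, 26 with no filter on low values, 28 with at least 10 reads in every library, 6 in number 2 alone (0 shared with the 50) and 25 in number 3 alone (9 shared). Without the 2 cultures of mismatched fractions, an alternative chosen after seeing the data, it was 114. Leaving out 1 culture, number or clone gave 5 to 860 genes. The count was 605 without WT clone 29 number 1, 114 without WT clone 28 number 2, 78 without R98S clone 13 number 3 and 82 without number 1. It was 22 to 32 without number 1 or 2 of R98S clone 35, number 3 of that clone, of WT clone 28 or of WT clone 29, R98S clone 11 number 1 or R98S clone 13 number 2, and 8 without number 3. Without a whole clone it was 7 for clone 11, 21 for clone 13, 5 for clone 35 and 860 for clone 29. The cause of this spread was not tested. Without WT clone 29 number 1 no WT culture of number 1 remains, and the differences come from numbers 2 and 3. They are the same as without number 1, so the counts of 605 and 82 differ through the estimate of variance alone.

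Polysomal RNA gave 1439 genes without the block, 301 in number 2 alone and 2142 without the mismatched cultures, and 1248 to 3786 with 1 culture, number or clone left out. Total mRNA gave 1411 with clone means, 47 in number 2 alone, 1011 in number 3 alone and 1535 without the mismatched cultures, and 698 to 2926 with parts left out. The interaction test gave 55 genes with a pseudocount of 10, 7 with no variance trend, 69 without the mismatched cultures and 1 to 366 with a clone left out, all chosen after seeing the data.

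Of the named genes, 5 that were not called changed sign. Phgdh was at 0.24 in number 3 alone and 0.0175 without number 2 of R98S clones 13 and 35, and between -0.72 and 0.0175 with parts left out. Psat1 was at -0.10 without the block, -0.0605 with clone means and -0.31 in number 2 alone, and between -0.29 and 0.17 with parts left out. Shmt2 was at 0.0454 with array weights, 0.54 in number 3 alone and 0.23 without number 2 of R98S clones 13 and 35, and between -0.58 and 0.23 with parts left out. Aldh18a1 was at 0.13 in number 3 alone. Atf4 was at -0.0323 without the block and -0.17 in number 2 alone, and between -0.0116 and 0.50 with parts left out.

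For the 11 genes with a WT mean under 10 in a fraction, the TE difference rests on low WT counts. WT clone 36 contributed 1 culture, and 3 clones against 3 cannot give an exact permutation p under 0.1.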

Other observations

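Genes named in this part were chosen after their values were seen, and no list of them was tested. Of the 35 genes whose TE difference changed between numbers 2 and 3, Mcpt8, a basophil protease, had the smallest adjusted p (0.00169 by limma), with a change of 8.47 log2 units. In number 2 it was listed at 16.2 and 47.0 polysomal counts in R98S clones 13 and 35 beside 746 and 1163 in total mRNA, whereas the total mRNA of the other cultures was between 0 and 173. Epx, an eosinophil peroxidase, and Ctsg, a granule protease, were called with changes of 9.92 and 8.69. Mcpt8 and Ctsg were at 0 in at least 1 library, so the size of their changes depends on the pseudocount. Flna, which crosslinks actin filaments, and the aminoacyl-tRNA synthetases Eprs, Lars and Iars were also called. Flna had 2529 and 1264 polysomal counts in the WT cultures of number 2 and 241 to 427 in those of number 3. Lars had 1295 and 902 in the former and 307 to 697 in the latter. Without number 2 of R98S clones 13 and 35, 35 genes were called in the comparison of genotypes, 20 of them among the 50. Number 2 then holds no R98S culture, and the differences come from numbers 1 and 3.

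Of the 84 genes called in the 12 cultures but not in the 14, 55 were higher and 29 lower in R98S, and all 84 had the same sign in the 14 cultures. The 14 cultures include the 12, so the shared sign is not an independent result. Among those that were higher, Havcr2, an inhibitory receptor, was at 1.55 (adjusted p = 0.0229), Cd84, a receptor of the SLAM family, at 1.02 (0.0472), and Cd200r3 and Cd200r4, receptors of the CD200 family, at 1.44 and 1.55 (0.0490 each). Alox5, which starts leukotriene synthesis, was at 2.26 (0.0490). The myeloid markers Mpo and Lyz2 had polysomal means of 4.68 and 2.67 in R98S and 74.7 and 45.4 in WT, beside 47.2 and 11.0 against 36.5 and 40.8 in total mRNA, and neither was called for TE in the 14 cultures (adjusted p = 0.652 and 0.655). Genes that were lower included the arginine methyltransferase Prmt7 at -0.95 (0.0339), the import pore subunit Tomm40 at -0.99 (0.0808) and the initiation scaffold Eif4g1 at -0.83 (0.0978). The values in parentheses are limma's adjusted p.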
